A study of Xenopus tropicalis with 26 samples.

Results

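The transcripts of 10 genes that drive the cell cycle were followed in early embryos of the frog Xenopus tropicalis. They are the cyclins ccna1, ccna2, ccnb2, ccne1, ccne2, ccnd1 and ccnd2 and the cyclin-dependent kinases (CDKs) cdk1, cdk2 and cdk4. They were taken by symbol from a count table of 28778 genes, in which each had 1 row. All 10 were among the 12883 genes with enough counts to be tested. Genes are called changed, here and below, where edgeR's quasi-likelihood test gives a p under 0.05 after Benjamini-Hochberg adjustment over all 12883 genes, and log2 differences are the first group named over the second.

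A CDK is a protein kinase that is inactive until a cyclin binds it, and cyclins are named for their rise and destruction in each division. D cyclins with Cdk4 act in the first gap phase, E cyclins with Cdk2 at the start of DNA replication, A cyclins with Cdk2 and Cdk1 through replication and into mitosis, and B cyclins with Cdk1 in mitosis. The first divisions of a frog embryo are fast, run without gap phases, and draw on transcripts that the mother stored in the egg. In Xenopus laevis, cyclins A1 and E1 are the egg and early embryo forms, and other forms, such as cyclin A2, gain weight after the mid-blastula transition, when cycles lengthen and the embryo's own genome becomes active.

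RNA was measured in 26 libraries, 2 for each of 13 groups, so that every mean ± SD has n = 2. Within stages 7 and 8 the groups were embryos injected with a morpholino (MO) against E2f1 together with E2f1 mRNA, the MO with E2f1 deltaDBD mutant mRNA, the MO with Cdkn1a mRNA, the MO alone, Cdkn1a mRNA alone, and untreated wildtype embryos. Wildtype embryos were also taken at stage 6. A morpholino is an antisense oligonucleotide that blocks translation or splicing of its target. E2f1 is a transcription factor that in mammalian cells activates genes of DNA replication, among them cyclins E and A. The labels call deltaDBD a mutant of E2f1. Cdkn1a (p21) is an inhibitor of cyclin-CDK complexes. Embryos given the MO are called morphants. The wildtype embryos had no injection, so the effect of injection itself cannot be told apart from that of the reagent in comparisons with them.

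Libraries held between 14071614 and 19032710 counted fragments. The injected mRNAs were seen where the labels place them: e2f1 stood at 3013 and 2729.5 CPM (counts per 1000000 after scaling, group means at stages 7 and 8) with E2f1 mRNA, at 2113 and 2052 CPM with deltaDBD mRNA, and at 376 to 537 CPM in the libraries without either. cdkn1a stood at 236 to 303 CPM in the libraries given Cdkn1a mRNA and at 1.08 to 6.09 CPM in all others. An MO need not lower its target's transcript, so e2f1 levels check the added mRNA and not the knockdown. The 2 stage 8 E2f1 MO libraries stood apart from each other: counts of the pair differed with a chi-square of 13.1 per gene, against 1.83 to 2.32 in the other 12 pairs, and the counts of called members that use them are given with and without each. Each gene's spread is estimated over all groups, so this pair also enters the tests of comparisons that do not use it. Those comparisons were not refitted without 1 library of the pair. Only the fits of the compared stages alone leave the pair out, where stage 8 is not compared. Leaving out 1 library leaves its group with 1, which is then assumed to vary like the other groups, from which the spread comes. The defining genes of follicle cells were under 1 CPM in every library for all 4 of those listed that are in the table, and cyp19a1 was at 0. Of 10 markers of differentiated tissues, 7 were under 1 CPM in every library, with myh6 and ins at 0, and the list's sum of 124 to 233 CPM was nearly all the keratin krt18.1. cdk4 shares 22 exonic bases with a neighbouring gene that had 0 counts in every library, and the span of ccne1 overlaps a gene on the other strand with which it shares 0 exonic bases. Nothing in the labels ties the 2 libraries of a group to separate clutches. The p-values therefore measure only how far such libraries lie apart, and that spread may be technical. Statements below that groups did not overlap describe 2 libraries a group. The share of all genes whose groups did not overlap was not counted, so they are description only. In whole embryos, fewer cells with a transcript cannot be told apart from less of it per cell, and with polyA-selected RNA a change in amount cannot be told apart from a change in polyA tail that alters capture.

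The 4 cyclins ccna1, ccnb2, ccna2 and ccne1 were the most abundant of the 10, and the D cyclins the scarcest. Compared per length, in transcripts per 1000000 (TPM) over the genes of the table, the order was the same in 26 of 26 libraries: ccna1, ccnb2, ccna2, ccne1, cdk4, cdk1, cdk2, ccne2, ccnd2 and ccnd1. Median levels over the libraries were 2862 TPM for ccna1, 2619 TPM for ccnb2, 1655 TPM for ccna2 and 743 TPM for ccne1. The kinases were lower, with medians of 233 TPM for cdk4, 159 TPM for cdk1 and 109 TPM for cdk2. Medians for the remaining cyclins were 70.6 TPM for ccne2, 17.8 TPM for ccnd2 and 9.80 TPM for ccnd1. In none of the 13 groups did the ranges of neighbours in this order overlap. The closest neighbours were ccna1 and ccnb2, whose ratio ran from 1.03 to 1.15 over the libraries. The least abundant, ccnd1, had 60 to 131 counts per library, and its values are the least precise.

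**Figure D1:**
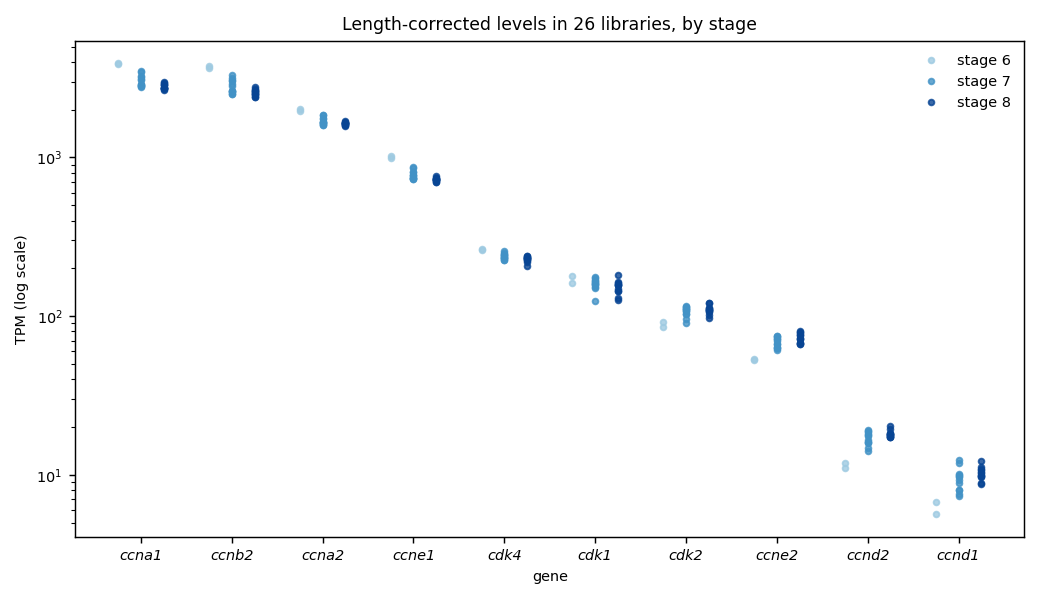
Level per length (TPM, log axis) of the 10 genes in all 26 libraries, 1 point per library, with stages 6, 7 and 8 side by side for each gene. The order of the genes is the same in every library, from a median of 2862 TPM for ccna1 down to 9.80 TPM for ccnd1.

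Across wildtype stages 6, 7 and 8 ccna1, ccna2, ccnb2 and ccne1 fell at both steps, while ccne2 and the D cyclins were higher at stage 8 than at stage 6. ccna1 (chromosome 2, 151891700 to 151898217, minus strand of the v10 build) had 3127 and 3072 CPM (stage 6), 2269 and 2229.5 CPM (stage 7) and 1779 and 1756 CPM (stage 8). ccna2 (chromosome 1, 66835343 to 66843283, plus strand) had 1471 and 1404 CPM, then 1130.3 and 1098 CPM, then 987 and 949.7 CPM at the same stages. Both A cyclins, which act in replication and entry into mitosis, thus stepped down at both steps with no overlap between stages. The difference of stage 8 from stage 6 was -0.81 ± 0.029 in log2 (SE; adjusted p = 2.68e-22, edgeR) for ccna1 and -0.57 ± 0.032 (adjusted p = 3.31e-17) for ccna2.

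ccnb2, the mitotic B cyclin of the set (chromosome 3, 99218968 to 99225327, plus strand), had 2392 and 2281 CPM (stage 6), 1713 and 1657 CPM (stage 7) and 1373 and 1308 CPM (stage 8). ccne1, which starts replication with Cdk2 (chromosome 4, 71326733 to 71336740, minus strand), had 861 and 825 CPM, then 600.3 and 588 CPM, then 507 and 491 CPM. Neither gene's libraries overlapped between stages. Stage 8 lay below stage 6 by log2 differences of -0.80 ± 0.036 (SE; edgeR adjusted p = 1.98e-19) for ccnb2 and -0.76 ± 0.035 (adjusted p = 1.77e-19) for ccne1. The step of stage 7 against stage 6 was the larger of the 2 for each of these 4 genes, at -0.46, -0.37, -0.47 and -0.51 in log2 for ccna1, ccna2, ccnb2 and ccne1, and that of stage 8 against stage 7 was -0.35, -0.20, -0.33 and -0.25. All 8 of these steps had adjusted p values of 5.54e-06 or less. Whether the steps differ in size was not tested.

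The other E cyclin, ccne2 (chromosome 6, 130651614 to 130658247, minus strand), went the other way. It had 43.1 and 42.1 CPM (stage 6), 46.6 and 43.8 CPM (stage 7) and 53.8 and 52.3 CPM (stage 8). The stage 8 libraries lay above all others and stage 6 lay lowest. ccne2 rose at stage 8 against stage 6 by 0.32 ± 0.067 in log2 (SE; edgeR adjusted p = 8.42e-05) and against stage 7 by 0.23 ± 0.065 (adjusted p = 0.00579). The second of these calls was lost without stage 7 wildtype replicate 2 (adjusted p = 0.0867) or stage 8 wildtype replicate 1 (0.0516).

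The D cyclins, which pair with Cdk4, were rare throughout. ccnd2 (chromosome 3, 11310563 to 11359045, minus strand) had 32.9 and 30.2 CPM (stage 6), 38.8 and 38.8 CPM (stage 7) and 41.1 and 42.1 CPM (stage 8). ccnd1 (chromosome 4, 14440350 to 14454258, plus strand) had 4.46 and 3.74 CPM, then 4.66 and 5.34 CPM, then 5.64 and 6.19 CPM. Stage 8 lay above stage 6 without overlap for both. ccnd2 rose by 0.40 ± 0.076 in log2 (SE; edgeR adjusted p = 1.92e-05) and ccnd1 by 0.53 ± 0.21 (adjusted p = 0.0227). The ccnd1 call was lost without stage 6 wildtype replicate 2 (adjusted p = 0.175) or stage 8 wildtype replicate 2 (0.113).

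Of the kinases, cdk1 and cdk4 fell between stages 6 and 8. cdk1, the mitotic kinase (chromosome 7, 16802494 to 16811397, plus strand), had 95.5 and 104 CPM (stage 6), 81.7 and 82.3 CPM (stage 7) and 61.8 and 70.8 CPM (stage 8). cdk4 (chromosome 2, 175911067 to 175947587, plus strand) had 461 and 453 CPM, then 357 and 365 CPM, then 336 and 329 CPM. The 3 stages did not overlap for either gene. Stage 8 against stage 6 gave -0.59 ± 0.12 in log2 for cdk1 (SE; edgeR adjusted p = 0.000534) and -0.46 ± 0.045 for cdk4 (adjusted p = 5.66e-11). For cdk1 neither single step passed as fitted (adjusted p = 0.0602 for stage 7 against stage 6 and 0.0694 for stage 8 against stage 7). Stage 7 against stage 6 passed for cdk1 with median-of-ratios scaling (0.0439), DESeq2 (0.00784), no count filter (3.17e-05) and only the libraries of those stages (0.000155). Stage 8 against stage 7 passed with DESeq2 (0.0124) and no count filter (2.23e-05). For cdk4 the step of stage 8 against stage 7, -0.12 (adjusted p = 0.0358), was lost without any 1 of the 4 libraries (adjusted p up to 0.181), with DESeq2 (0.0563) and with total-count scaling (0.285).

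cdk2, the partner of the E and A cyclins (chromosome 2, 137876515 to 137889315, minus strand), had 69.1 and 73.4 CPM (stage 6), 73.5 and 73.1 CPM (stage 7) and 71.5 and 72.1 CPM (stage 8). These libraries overlapped between stages 6 and 8, and the difference was 0.01 ± 0.065 in log2 (SE; edgeR adjusted p = 0.896).

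In counts, stage 8 against stage 6 called 9 of 10 members, 3 higher and 6 lower, where 69.0% of all tested genes were called (36.4% higher, 32.6% lower). Stage 7 against stage 6 called 6 of 10, 1 higher and 5 lower (background 56.3%, 28.4% higher and 27.9% lower), and stage 8 against stage 7 called 6 of 10, 1 higher and 5 lower (background 36.7%, 19.1% higher and 17.6% lower). The share called was thus near the background at the first step and above it in the other 2 comparisons, and lower calls outnumbered higher ones among the 10 but not among all genes. The members were chosen with earlier results of these data known, and the background was not matched for level. These shares, and those set beside a background below, are therefore description only. The median log2 difference of the 10 was -0.51 between stages 6 and 8, against 0.06 for all tested genes, and -0.31 and -0.16 at the single steps, against 0.01 and 0.02. When libraries were scaled by total counts alone, the median of all genes stood at 0.29 for stage 8 against stage 6 and at 0.18 for stage 7 against stage 6. Under that scaling, stage 7 against stage 6 called 3 members higher and 5 lower, since ccne2 (0.25 in log2) and cdk2 (0.21) joined, and stage 8 against stage 6 called all 10, with cdk2 at 0.24, below the median of all genes. It called 7220 and 8985 of all genes in these 2 comparisons, against 7249 and 8883 as reported. At stage 7 against stage 6 it put ccna1, ccna2, ccnb2 and ccne1 at -0.30, -0.20, -0.31 and -0.34 in log2. As reported these were -0.46, -0.37, -0.47 and -0.51. CPM are shares of a library's counts, so falls and rises are relative to its other transcripts. The summed level of 8 stored egg transcripts, all detected, was 1894 to 1958 CPM at stage 6, 1630 to 1658 CPM at stage 7 and 1478 to 1504 CPM at stage 8. The sum is weighted to abundant genes: between stages 8 and 6, 3 of the 8 were called higher and 5 lower. Their median was -0.54 in log2. fbxo43, also counted below among genes of cyclin destruction, ran from 125 to 548 CPM over all libraries. The summed level of 9 early zygotic genes was 5.88 to 7.04 CPM with 7 of 9 at 0, then 23.1 to 23.6 CPM, then 177 to 186 CPM. The part of either set in the cyclin changes was not tested.

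**Figure D2:**
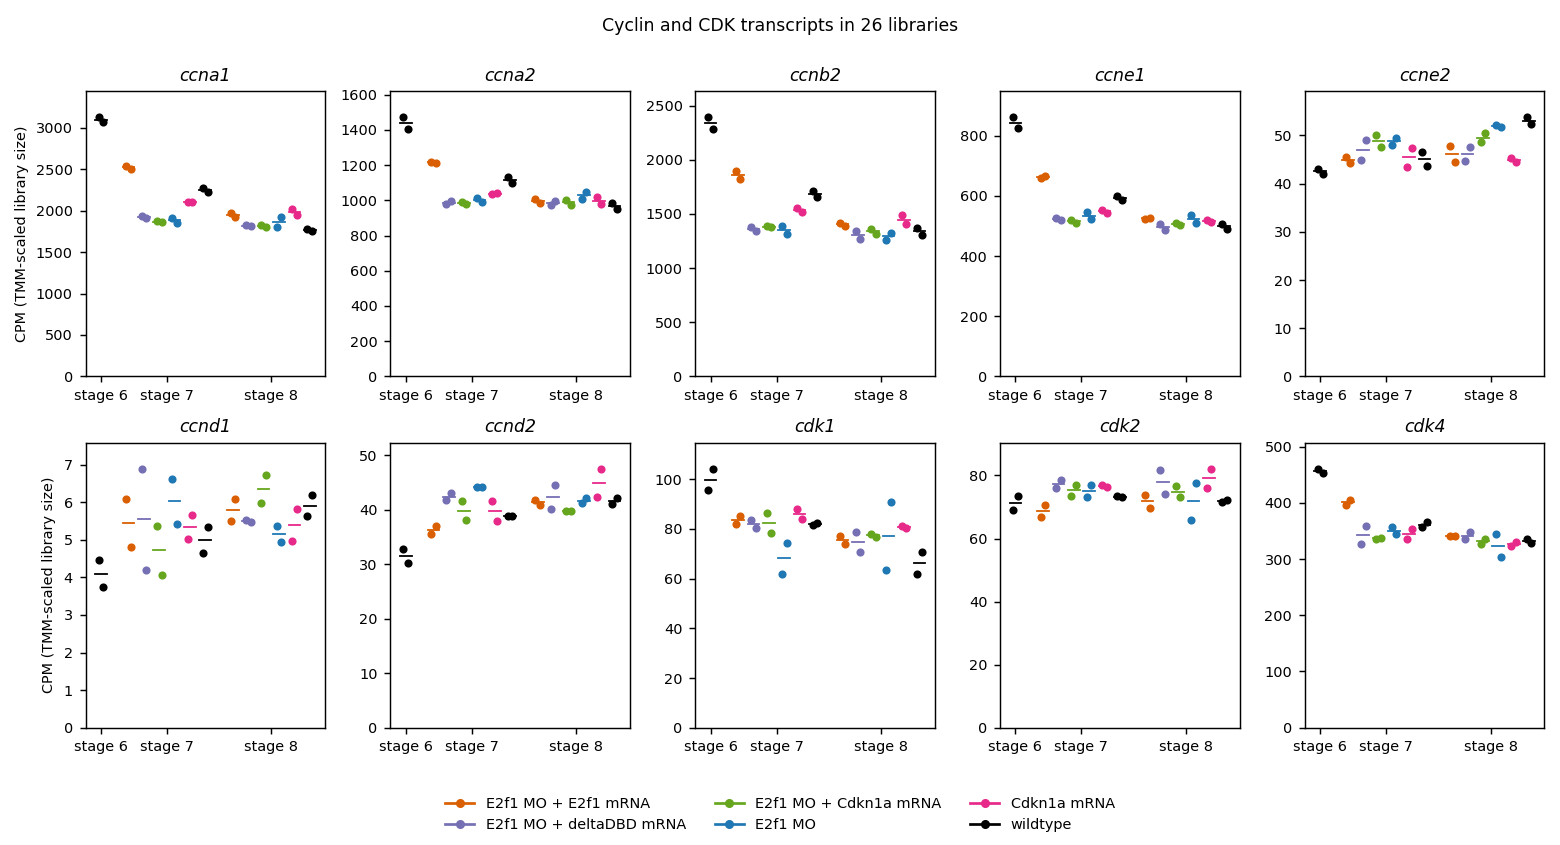
CPM (TMM-scaled library size) of each gene in all 26 libraries, 1 point per library and a bar at each group mean, by stage, with groups in colour. ccna1, ccna2, ccnb2, ccne1 and cdk4 are highest in stage 6 wildtype and next in stage 7 embryos with the E2f1 MO and E2f1 mRNA. ccnd2 is lowest in those same 2 groups.

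Early and later forms were set side by side per length, as a description with no test. ccna1 exceeded ccna2 in every library, by 1.96 ± 0.040 times at stage 6, 1.84 ± 0.014 times at stage 7 and 1.66 ± 0.030 times at stage 8 of the wildtype (SD, n = 2). ccne1 exceeded ccne2 by 18.8 ± 0.25, 12.5 ± 0.37 and 8.93 ± 0.033 times at the same stages. Both early forms thus kept the larger share up to stage 8, and the ratio of ccne1 to ccne2 moved more. ccna2 itself fell at both wildtype steps, by less in log2 than ccna1, so its gain on ccna1 was only relative. ccne2 was higher at stage 8 than at stage 6. Neither pair's libraries overlapped between the wildtype stages. For the D cyclins the ratio of ccnd1 to ccnd2 was 0.54 ± 0.036, 0.54 ± 0.052 and 0.59 ± 0.029. Its libraries overlapped between stages 6 and 7 and between stages 7 and 8, and those of stage 8 (0.571 to 0.611) lay above those of stage 6 (0.515 to 0.565).

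The same ratios differed among injected embryos. At stage 7 the ratio of ccna1 to ccna2 was 1.89 ± 0.0076 with MO and E2f1 mRNA, 1.77 ± 0.041 with MO and deltaDBD mRNA, 1.71 ± 0.018 with the MO, 1.84 ± 0.0024 with Cdkn1a mRNA and 1.84 ± 0.014 in wildtype. The ratio of ccne1 to ccne2 was 14.01 ± 0.41 with MO and E2f1 mRNA, 10.6 ± 0.76 with MO and deltaDBD mRNA, 10.4 ± 0.55 with the MO, 11.5 ± 0.87 with Cdkn1a mRNA and 12.5 ± 0.37 in wildtype. MO and Cdkn1a mRNA together gave 1.73 ± 0.010 for ccna1 over ccna2 and 10.01 ± 0.24 for ccne1 over ccne2. Morphants with E2f1 mRNA had the highest values of both ratios at that stage and lay above wildtype without overlap. At stage 8 Cdkn1a mRNA alone gave 1.81 ± 0.00084 for ccna1 over ccna2 and 10.9 ± 0.082 for ccne1 over ccne2, against 1.66 ± 0.030 and 8.93 ± 0.033 in wildtype. MO and E2f1 mRNA gave 1.78 ± 0.00079 and 10.8 ± 0.58 at that stage. For ccne1 over ccne2 all 5 injected groups lay above stage 8 wildtype without overlap, with means of 9.56 for the MO alone, 9.69 for MO and Cdkn1a mRNA and 10.2 for MO and deltaDBD mRNA. For ccna1 over ccna2 these 3 groups had means of 1.65 to 1.68 and overlapped wildtype.

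**Figure D3:**
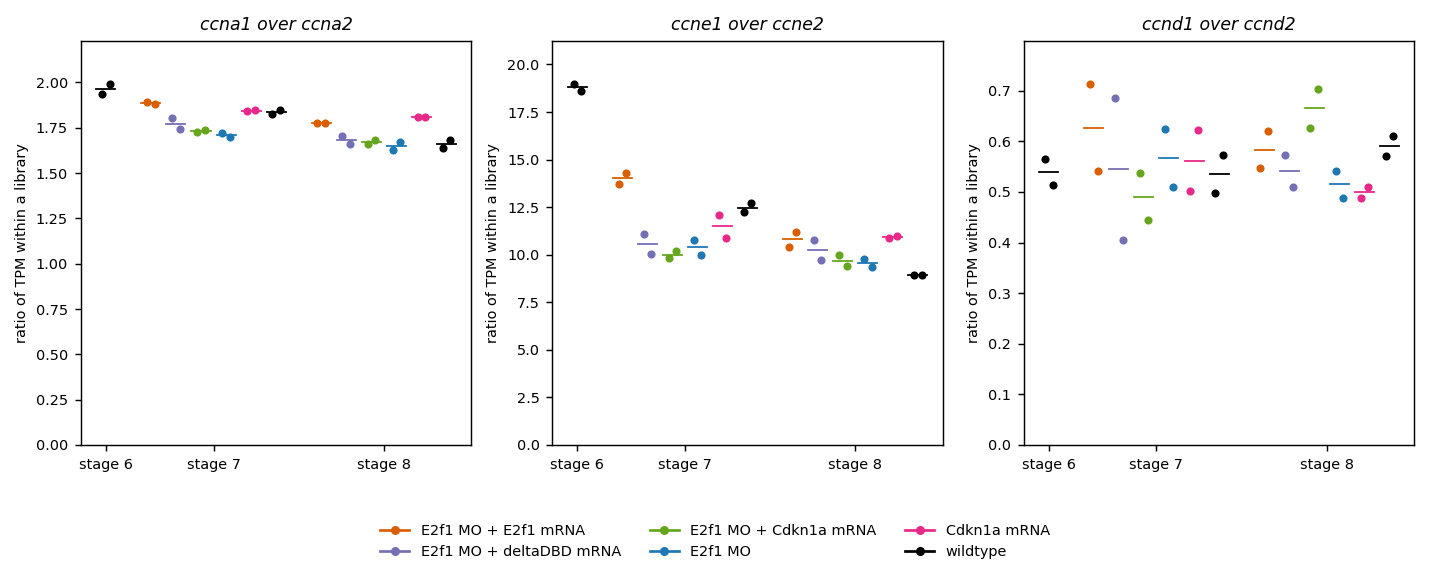
Ratio of TPM within each library for 3 pairs of related cyclins, 1 point per library and a bar at each group mean, by stage and group. In wildtype, ccne1 over ccne2 stands at 18.8, 12.5 and 8.93 at stages 6, 7 and 8 and ccna1 over ccna2 at 1.96, 1.84 and 1.66, while ccnd1 over ccnd2 scatters between 0.41 and 0.71 over all libraries.

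With the E2f1 MO at stage 7, the 4 abundant cyclins fell below stage 7 wildtype, and no member was called higher. ccna1 had 1917 and 1849 CPM in stage 7 morphants, against 2269 and 2229.5 CPM in stage 7 wildtype embryos. ccnb2 had 1391 and 1315 CPM in morphants, against 1713 and 1657 CPM in wildtype. The morphant libraries lay below the wildtype ones without overlap in both genes. The differences were -0.26 ± 0.029 in log2 for ccna1 (SE; edgeR adjusted p = 2.41e-08) and -0.32 ± 0.036 for ccnb2 (adjusted p = 3.88e-08).

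ccna2 had 1013 and 991 CPM in stage 7 morphants, against 1130.3 and 1098 CPM in stage 7 wildtype embryos, and ccne1 had 546 and 522 CPM in morphants, against 600.3 and 588 CPM in wildtype. These changes were smaller, each -0.15 in log2 (edgeR adjusted p = 0.000425 for ccna2 and 0.00108 for ccne1), again with no overlap. The ccne1 call was lost without stage 7 E2f1 MO replicate 2 (adjusted p = 0.0514). Other members did not pass: ccnd2 had 44.1 and 44.2 CPM in morphants, against 38.8 and 38.8 CPM in wildtype (adjusted p = 0.0593), and cdk1 had 61.8 and 74.4 CPM in morphants, against 81.7 and 82.3 CPM in wildtype (adjusted p = 0.136). With total-count scaling ccnd2 passed as well (0.0226), so that 1 member was higher and 4 lower. A fit of the stage 7 libraries alone called 6 members, with ccnd2 higher (0.19, adjusted p = 0.0286) and cdk1 lower (-0.27, 0.00041), and cdk1 also passed without the count filter (0.000508). Of all genes, the stage 7 fit called 4335 and total-count scaling 3252, against 3243 as reported. In all, 4 of 10 members were called, 0 higher and 4 lower, where 25.2% of all tested genes were called (12.7% higher, 12.5% lower). The median of the 10 was -0.10 in log2, against 0.01 for all genes. In the same libraries the 9 early zygotic genes summed to 101 to 111 CPM in morphants and 23.1 to 23.6 CPM in wildtype, and the 8 stored egg transcripts to 1304 to 1343 CPM in morphants and 1630 to 1658 CPM in wildtype. Their part in the result was not tested.

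In stage 7 morphants given E2f1 mRNA, the abundant cyclins and cdk4 stood above the MO alone. ccna1 had 2536 and 2508 CPM in morphants with E2f1 mRNA, against 1917 and 1849 CPM with the MO alone. ccnb2 had 1894 and 1825 CPM with E2f1 mRNA, against 1391 and 1315 CPM with the MO. Groups did not overlap, and the differences were 0.42 ± 0.029 in log2 for ccna1 (SE; edgeR adjusted p = 1.12e-13) and 0.46 ± 0.036 for ccnb2 (adjusted p = 4.77e-12).

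ccna2 had 1219 and 1212 CPM with MO and E2f1 mRNA, against 1013 and 991 CPM with the MO (log2 difference 0.28, edgeR adjusted p = 9.91e-09). ccne1 had 659.8 and 667 CPM with E2f1 mRNA, against 546 and 522 CPM with the MO (0.31, adjusted p = 5.56e-09). cdk4 had 397 and 405 CPM with E2f1 mRNA, against 356 and 344 CPM with the MO (0.20, adjusted p = 0.000578). All 3 lay higher with E2f1 mRNA without overlap. ccnd2 was the member that fell, with 35.5 and 37.1 CPM with E2f1 mRNA and 44.1 and 44.2 CPM with the MO alone (-0.28, adjusted p = 0.00199). ccne2 had 45.6 and 44.3 CPM with E2f1 mRNA, against 48.0 and 49.5 CPM with the MO, which did not pass (-0.12, adjusted p = 0.158). cdk1 had 82.1 and 85.4 CPM with E2f1 mRNA, against 61.8 and 74.4 CPM with the MO, and did not pass in edgeR (0.30, adjusted p = 0.0652) but did in DESeq2 (0.0129), without the count filter (4.58e-05) and in a fit of the stage 7 libraries alone (6.11e-05), which also called cdk2 as lower (-0.13, 0.0299).

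This comparison called 6 of 10 members, 5 higher and 1 lower, where 45.4% of all tested genes were called (22.4% higher, 23% lower), so the share called was not far above the background. The median of the 10 was 0.24 in log2, against -0.02 for all genes. Total-count scaling put the median of all genes at -0.12 and called 3 members lower instead of 1, as ccne2 (-0.21) and cdk2 (-0.22) joined ccnd2, beside the same 5 higher. It called 6001 of all genes, against 5849 as reported. The 9 early zygotic genes summed to 13.5 to 13.7 CPM with E2f1 mRNA, with mix1 at 0, and to 101 to 111 CPM with the MO. The 8 stored egg transcripts summed to 1624 to 1627 CPM with E2f1 mRNA and 1304 to 1343 CPM with the MO. Of these 8, 5 were called higher and 2 lower with E2f1 mRNA. The part of either set was not tested.

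No member passed at stage 7 when morphants were given the deltaDBD form. ccna1 had 1935 and 1907 CPM in morphants with deltaDBD mRNA, against 1917 and 1849 CPM with the MO alone, and ccnb2 had 1381 and 1338 CPM with deltaDBD mRNA, against 1391 and 1315 CPM with the MO. The libraries of both groups overlapped for each gene. Counts were 0 of 10 called by edgeR and by DESeq2, and 0.0310% of all genes were called. An unadjusted p under 0.05 was found for 1 member (cdk1) and for 635 of all 12883 genes. cdk1 had 83.6 and 80.5 CPM with deltaDBD mRNA, against 61.8 and 74.4 CPM with the MO, a log2 difference of 0.27 ± 0.13 (SE; edgeR adjusted p = 0.953) that passed without the count filter (0.0487) and in a fit of the stage 7 libraries alone (0.0311).

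Set against deltaDBD mRNA in morphants of the same stage, E2f1 mRNA called 7 of 10 members at stage 7, 5 higher and 2 lower, where 46.6% of all genes were called (22.6% higher, 23.9% lower). Log2 differences were 0.39 ± 0.029 for ccna1, 0.30 ± 0.032 for ccna2, 0.45 ± 0.036 for ccnb2, 0.34 ± 0.035 for ccne1 and 0.22 ± 0.045 for cdk4 (SE), with edgeR adjusted p of 0.000117 or less. The 2 lower were ccnd2 (-0.22, adjusted p = 0.0140) and cdk2 (-0.17, adjusted p = 0.0324). The ccnd2 call was lost without deltaDBD replicate 2 (adjusted p = 0.0853) or E2f1 mRNA replicate 1 (0.111). The cdk2 call was lost without either deltaDBD replicate (0.0588 and 0.168), without E2f1 mRNA replicate 1 (0.232) and in DESeq2 (0.0703). This comparison and that against the MO share the libraries with E2f1 mRNA.

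Morphants with E2f1 mRNA at stage 7 also exceeded wildtype of that stage in 5 of 10 members, with 0 lower, where 13% of all genes were called (6.82% higher, 6.20% lower). ccna1 had 2536 and 2508 CPM with MO and E2f1 mRNA, against 2269 and 2229.5 CPM in wildtype, and ccne1 659.8 and 667 CPM with E2f1 mRNA, against 600.3 and 588 CPM in wildtype. Both groups of libraries were apart. Log2 differences were 0.17 for ccna1, 0.13 for ccna2, 0.14 for ccnb2, 0.16 for ccne1 and 0.15 for cdk4, with edgeR adjusted p between 0.0002 and 0.0231. The ccna1 call was kept in all alternatives. A fit of the stage 7 libraries alone kept all 5 but called 3004 of all genes, against 1678 as reported. Total-count scaling kept only ccna1 and ccne1, and leaving out 1 library left 1 to 4 calls, with 1 left without stage 7 wildtype replicate 2.

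At stage 8 few members passed among the MO and E2f1 groups. ccna1 had 1806 and 1922 CPM in stage 8 morphants, against 1779 and 1756 CPM in stage 8 wildtype embryos, and ccnb2 had 1264 and 1327 CPM in morphants, against 1373 and 1308 CPM in wildtype. The morphants lay above wildtype without overlap in ccna1 and overlapped it in ccnb2. No member was called by edgeR or DESeq2, and 4.32% of all genes were called. An unadjusted p under 0.05 was found for 2 members and for 2334 of all 12883 genes. Of the 10 genes, the 2 morphant libraries differed most from each other in cdk1, with 63.5 CPM in replicate 1 and 90.9 CPM in replicate 2, against 61.8 and 70.8 CPM in wildtype. Without replicate 1 of the stage 8 E2f1 MO, 4 members were called, ccna1 at 0.13, ccna2 at 0.13 and cdk1 at 0.47 higher and cdk4 at -0.12 lower in log2. Without replicate 2, 1 was called, ccne1 at 0.11.

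E2f1 mRNA in stage 8 morphants gave 1966 and 1919.5 CPM of ccna1, against 1806 and 1922 CPM with the MO alone and 1827 and 1811 CPM with MO and deltaDBD mRNA. Against the MO, 3 members and 2613 of all 12883 genes had an unadjusted p under 0.05. After adjustment 0 of 10 members were called in edgeR and DESeq2, and 6.06% of all genes were called. The nearest was ccnb2, with 1420.5 and 1388 CPM with E2f1 mRNA, against 1264 and 1327 CPM with the MO (log2 difference 0.12, edgeR adjusted p = 0.0501). Without stage 8 E2f1 MO replicate 1, 3 members passed (ccna2 at -0.09, cdk1 at -0.28 and cdk4 at 0.16), and without replicate 2, 1 did (ccna1 at 0.10). Against deltaDBD mRNA, which does not use the pair that stands apart, 0 of 10 were called in edgeR and DESeq2. Of all genes 1.60% were called. An unadjusted p under 0.05 was found for 3 members and for 1327 of all 12883 genes. There ccna1 was at 0.10 ± 0.029 (SE; adjusted p = 0.109), ccnb2 at 0.10 ± 0.036 (0.225) and ccne1 at 0.08 ± 0.035 (0.407).

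deltaDBD mRNA against the MO at stage 8 called 0 of 10 members in edgeR and DESeq2, with 1.03% of all genes called. An unadjusted p under 0.05 was found for 2 members and for 1815 of all 12883 genes. Without stage 8 E2f1 MO replicate 1, 4 passed (ccna1 at -0.09, ccna2 at -0.10, cdk1 at -0.30 and cdk4 at 0.16), and without replicate 2, 0 did. Morphants with E2f1 mRNA against wildtype at stage 8 called 1 member, ccna1, where 5.75% of all genes were called (2.10% higher, 3.66% lower). It had 1966 and 1919.5 CPM with E2f1 mRNA, against 1779 and 1756 CPM in wildtype, without overlap, a log2 difference of 0.14 ± 0.029 (SE; edgeR adjusted p = 0.00175). This call was lost without stage 8 E2f1 mRNA replicate 1 (0.0781) or stage 8 wildtype replicate 2 (0.0521) and in a fit of the stage 8 libraries alone (0.0621), and total-count scaling added ccne2 as lower (-0.22).

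Cdkn1a mRNA, which adds the CDK inhibitor, went with lower cyclins at stage 7 and with higher ccna1 at stage 8. At stage 7 ccna1 had 2099.8 and 2108 CPM with Cdkn1a mRNA, against 2269 and 2229.5 CPM in wildtype, and ccnb2 had 1558 and 1518 CPM with Cdkn1a mRNA, against 1713 and 1657 CPM in wildtype. Cdkn1a libraries lay below wildtype without overlap. At that stage 3 of 10 members were called, 0 higher and 3 lower, where 4.75% of all genes were called (1.93% higher, 2.82% lower). They were ccna1 at -0.10 ± 0.029, ccnb2 at -0.13 ± 0.036 and ccne1 at -0.11 ± 0.035 in log2 (SE; edgeR adjusted p = 0.0457, 0.0296 and 0.0492). Leaving out any 1 of the 4 libraries ended all 3 calls, with adjusted p up to 0.335, as did total-count scaling. DESeq2 lost ccna1 (0.0554), and the fit without the count filter lost ccne1 (0.0845). A fit of the stage 7 libraries alone kept these 3 calls but called 1892 of all genes, against 612 as reported. The background thus depends on the fit.

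At stage 8 ccna1 had 2022 and 1946 CPM with Cdkn1a mRNA, against 1779 and 1756 CPM in wildtype, and ccne2 had 45.4 and 44.4 CPM with Cdkn1a mRNA, against 53.8 and 52.3 CPM in wildtype. Neither gene's groups overlapped. ccna1 was higher by 0.17 ± 0.029 in log2 (SE; edgeR adjusted p = 0.00011), and kept its call in all alternatives. ccne2 was lower by -0.24 ± 0.065 (adjusted p = 0.0189), and lost its call without any 1 of the 4 libraries (adjusted p up to 0.148) and in a fit of the stage 8 libraries alone (0.0516). These 2 of 10 members, 1 higher and 1 lower, stood beside 6.22% of all genes called (2.81% higher, 3.41% lower). The other members did not pass: ccnb2 had 1487 and 1409.7 CPM with Cdkn1a mRNA, against 1373 and 1308 CPM in wildtype (adjusted p = 0.0618), and cdk1 had 81.3 and 80.2 CPM with Cdkn1a mRNA, against 61.8 and 70.8 CPM in wildtype (0.241). Both passed without the count filter (0.0255 for ccnb2 and 0.000705 for cdk1). The 9 early zygotic genes summed to 40.9 to 44.0 CPM with Cdkn1a mRNA and 177 to 186 CPM in wildtype, and the 8 stored egg transcripts to 1550 to 1553 CPM with Cdkn1a mRNA and 1478 to 1504 CPM in wildtype. Of those 8, 3 were called higher and 1 lower. Their median was -0.02 in log2, against 0.004 for all genes, so the higher sum was not the typical change. The part of either set was not tested.

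Added to morphants, Cdkn1a mRNA gave 0 of 10 members called at either stage by edgeR as fitted or by DESeq2. ccna1 had 1871 and 1866 CPM with MO and Cdkn1a mRNA, against 1917 and 1849 CPM with the MO, at stage 7, and 1829 and 1801 CPM with MO and Cdkn1a mRNA, against 1806 and 1922 CPM with the MO, at stage 8. Groups overlapped at both stages. At stage 7, 2 members and 1569 of all 12883 genes had an unadjusted p under 0.05, and 1.40% of all genes were called. At stage 8 these were 0 members, 1800 genes and 1.82%. At stage 7 cdk1 passed without the count filter (0.27 in log2, adjusted p = 0.00289) and in a fit of the stage 7 libraries alone (0.27, 0.00252). Without stage 8 E2f1 MO replicate 1 the stage 8 comparison called 4 members, ccna1 at -0.09, ccna2 at -0.10, cdk1 at -0.24 and cdk4 at 0.12 in log2, and without replicate 2 it called 0.

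**Figure D4:**
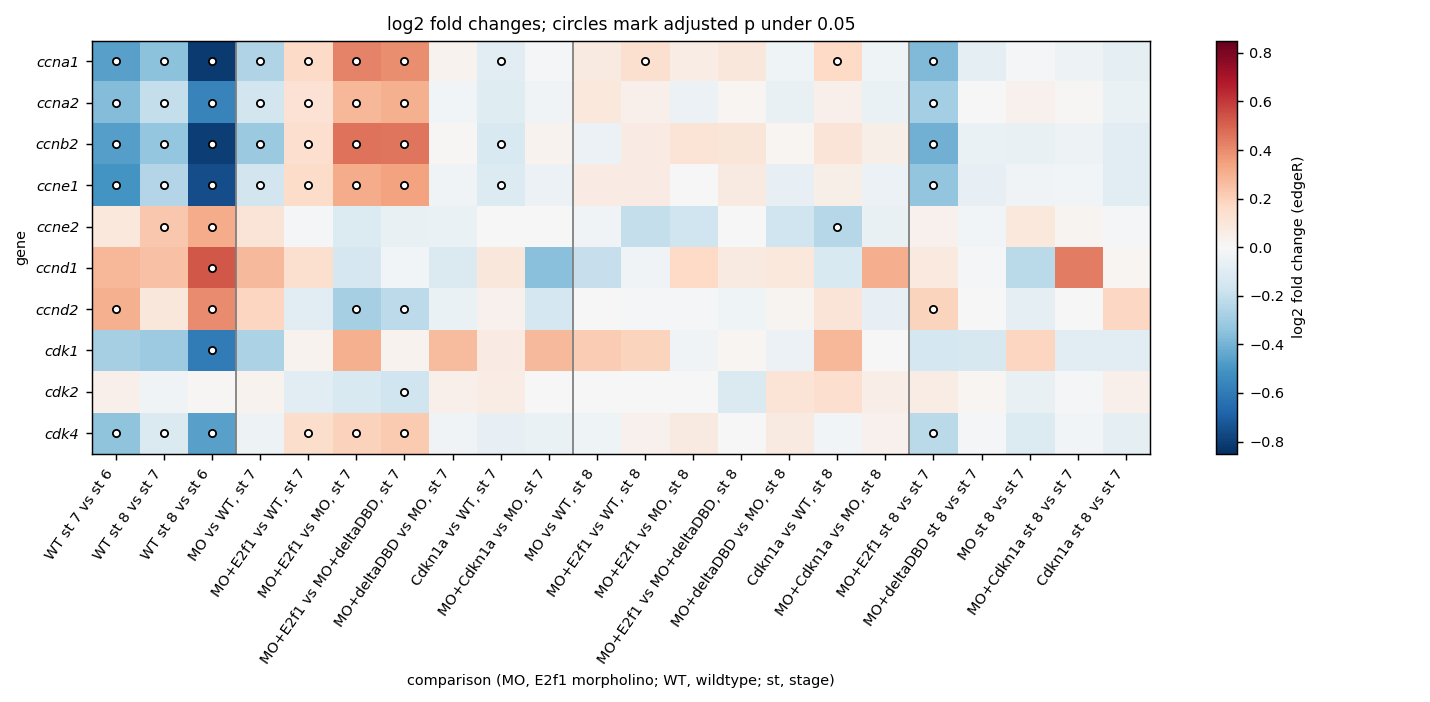
Log2 difference of each gene (rows) in 22 comparisons (columns), blue for lower and red for higher in the group named before "vs", with a circle where the edgeR adjusted p is under 0.05. Circles gather in the wildtype stage comparisons, in the stage 7 comparisons with E2f1 mRNA and in the stage 8 against stage 7 step of morphants with E2f1 mRNA, and are few at stage 8.

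The step of stage 8 against stage 7 could be read in each injected group, in libraries that wildtype does not share. In morphants with E2f1 mRNA it called 6 of 10 members, 1 higher and 5 lower, where 44.6% of all genes were called (22.6% higher, 22% lower). ccna1 had 1966 and 1919.5 CPM at stage 8, against 2536 and 2508 CPM at stage 7, and ccnb2 had 1420.5 and 1388 CPM at stage 8, against 1894 and 1825 CPM at stage 7. The stages were far apart in both. Log2 differences were -0.38 ± 0.029 for ccna1, -0.29 ± 0.032 for ccna2, -0.41 ± 0.036 for ccnb2, -0.34 ± 0.035 for ccne1 and -0.23 ± 0.045 for cdk4 (SE; edgeR adjusted p of 7.2e-05 or less). ccnd2 was higher by 0.19 (adjusted p = 0.0389), a call that was lost without any 1 of the 4 libraries (up to 0.206), in DESeq2 (0.0866) and without the count filter (0.073).

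In the other 4 injected groups the step called 0 of 10 members, by edgeR and by DESeq2. The background was 3.69% for the MO alone, 0.380% with deltaDBD mRNA, 2.41% with Cdkn1a mRNA and 0.140% with MO and Cdkn1a mRNA. Members at an unadjusted p under 0.05 numbered 1 for the MO, 2 with deltaDBD mRNA, 4 with Cdkn1a mRNA and 1 with MO and Cdkn1a mRNA. Of all 12883 genes, 2575, 917, 2023 and 752 were under it in these groups, in the same order. The log2 difference of ccna1 was -0.01 ± 0.029 for the MO, -0.08 ± 0.029 with deltaDBD mRNA, -0.08 ± 0.029 with Cdkn1a mRNA and -0.04 ± 0.029 with MO and Cdkn1a mRNA (SE), against -0.38 ± 0.029 with E2f1 mRNA and -0.35 ± 0.029 in wildtype. For the MO alone, 2 members passed without stage 8 E2f1 MO replicate 1, cdk1 at 0.43 and cdk4 at -0.20, and 0 passed without replicate 2.

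Tests of the differences themselves bore on the same cyclins. With the MO, ccna1, ccna2, ccnb2 and ccne1 were called lower than wildtype at stage 7, and no member was called at stage 8. With Cdkn1a mRNA, ccna1, ccnb2 and ccne1 were called lower at stage 7, and of these only ccna1 was called at stage 8, as higher. The effect of the MO against wildtype was higher at stage 8 than at stage 7 in 4 of 10 members, where 16.1% of all genes were called (7.40% higher, 8.75% lower): ccna1 by 0.33 ± 0.041, ccna2 by 0.24 ± 0.045, ccnb2 by 0.27 ± 0.051 and ccne1 by 0.22 ± 0.049 in log2 (SE; edgeR adjusted p of 0.00181 or less). These calls were kept without either stage 8 E2f1 MO library, and without replicate 1 cdk1 joined at 0.73. It also joined without stage 7 E2f1 MO replicate 2, at 0.63. The effect of Cdkn1a mRNA against wildtype was higher at stage 8 than at stage 7 in the same 4 genes, where 6.09% of all genes were called (3.66% higher, 2.44% lower): ccna1 by 0.26, ccna2 by 0.15, ccnb2 by 0.24 and ccne1 by 0.16 (adjusted p = 5.96e-05, 0.0442, 0.00278 and 0.0383). Both tests use the same wildtype libraries. Each also equals the step of stage 8 against stage 7 in the injected group less the same step in wildtype. The 2 tests are therefore not separate from the steps given above, where ccna1 fell in wildtype and moved little with the MO or Cdkn1a mRNA. Of the Cdkn1a calls, DESeq2 and total-count scaling kept ccna1 and ccnb2. Median-of-ratios scaling lost ccna2 (edgeR adjusted p = 0.0565), and the fit without the count filter lost ccna2 (0.0782) and ccne1 (0.0848). The calls of ccna2 and ccne1 were lost without any 1 of the 8 libraries (adjusted p up to 0.284 and 0.224), and that of ccnb2 without stage 8 wildtype replicate 2 (0.052) or stage 8 Cdkn1a replicate 1 (0.0535).

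The effect of E2f1 against deltaDBD mRNA in morphants was lower at stage 8 than at stage 7 in 5 members, where 25.8% of all genes were called (12.8% higher, 13% lower), with log2 differences of -0.30 ± 0.041 for ccna1, -0.28 ± 0.045 for ccna2, -0.35 ± 0.051 for ccnb2, -0.27 ± 0.049 for ccne1 and -0.22 ± 0.064 for cdk4 (SE; edgeR adjusted p of 0.00899 or less). This test was chosen after seeing the data. The cdk4 call was lost without stage 7 deltaDBD replicate 1 (0.1) or stage 8 deltaDBD replicate 2 (0.0508) and with total-count scaling (0.0654). At stage 7, 2 members and 1603 of all 12883 genes had an unadjusted p under 0.05 for the interaction of the MO and Cdkn1a mRNA. This interaction called 0 of 10 members by edgeR and DESeq2 at that stage, and 1.05% of all genes. At stage 8 it called ccna1, at -0.20 ± 0.041 (SE; adjusted p = 0.00114), where 6.33% of all genes were called (3.85% higher, 2.48% lower). Without replicate 1 of the stage 8 E2f1 MO 4 members passed there, ccna1 at -0.25, ccna2 at -0.14, cdk1 at -0.52 and cdk4 at 0.15, and without replicate 2, 2 passed, ccna1 at -0.16 and ccne1 at -0.13.

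Ordering the 13 groups by level, stage 6 wildtype came first, then stage 7 morphants with E2f1 mRNA, then stage 7 wildtype, for ccna1, ccna2, ccnb2, ccne1 and cdk4, each apart from the next without overlap. For ccna1 and ccnb2, stage 7 Cdkn1a mRNA came next, also apart. Below that the groups of these genes mostly overlapped their neighbours. ccnd2 had stage 6 wildtype and stage 7 morphants with E2f1 mRNA as its lowest 2 groups, and ccne2 had stage 8 wildtype highest and stage 6 wildtype lowest, each apart. For ccnd1 and cdk2 every group overlapped its neighbour in the order.

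Other cyclins and CDK partners were counted from lists, between stages 8 and 6 of the wildtype unless stated, where 69.0% of all tested genes were called, 36.4% higher and 32.6% lower. Of 9 other cell cycle cyclins tested, 4 rose and 3 fell, with a median of 0.03 in log2 against 0.06 for all genes, so the share called was near the background. The B cyclins ccnb1 and ccnb1.2 fell by 0.76 and 0.70, with edgeR adjusted p of 3.39e-21 and 2.04e-20. These 2 are close relatives, and their values are uncertain where fragments fit both. The third listed B cyclin, ccnb3, was higher at stage 8 than at stage 7, by 0.65 (edgeR adjusted p = 0.00143). That is only the second step, and its difference between stages 8 and 6 is not given here. Over all libraries ccnb3 ran from 11.4 to 63.1 CPM, a ratio of 5.53, against 1.75 for ccnb1. ccnf, an F-box protein with a cyclin fold, rose by 2.22 (adjusted p = 1.27e-10). Of 5 other CDKs tested out of 10 listed, 3 rose and 1 fell, again near the background, among them cdk5 at 0.81 and cdk16 at 1.10 higher.

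Of the 3 subunits of the CDK activating kinase, which phosphorylates CDKs, cdk7 rose by 1.70 and ccnh by 0.29, and the assembly factor mnat1 fell by 0.65 (edgeR adjusted p of 0.000106 or less). Of 4 CDK inhibitors tested out of 8, cdkn1a rose by 2.08, cdkn2d rose by 1.47 and cdkn1b fell by 0.48. Of 8 regulators of CDK activity, 2 rose and 5 fell, with a median of -0.83, beside 36.4% of all genes higher and 32.6% lower. The kinase wee2, which inhibits Cdk1 by phosphorylation, fell by 0.87, the phosphatase cdc25a, which removes that mark, fell by 0.79, and the small CDK-binding protein cks2 fell by 2.56, while the kinase pkmyt1 rose by 1.32. Of 7 genes of cyclin destruction, 3 rose and 4 fell, where 69.0% of all genes were called; fbxo43, an inhibitor of the anaphase-promoting complex, fell by 2.10 and its activator cdc20 by 0.72, while the other activator, fzr1, rose by 0.43.

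At stage 7 several of these genes moved with E2f1 mRNA against the MO. Of the 8 regulators 5 were higher and 2 lower, with a median of 0.39 in log2 against -0.02 for all genes, of which 22.4% were higher and 23% lower, and cks2 was at 1.49, wee2 at 0.44 and cdc25a at 0.34 (edgeR adjusted p of 1.38e-07 or less). Beside the same background, 2 of the 9 other cyclins were higher and 3 lower, with a median of -0.14. Among them ccnb1 was at 0.40 and ccnb1.2 at 0.31, both higher, and ccnf at -0.85, lower. Of the 7 genes of cyclin destruction 2 were higher and 3 lower, with a median of 0.01. Among these cdc20 at 0.35 and fbxo43 at 0.92 were higher, and fzr1 at -0.25 lower. Of the 5 other CDKs tested 0 were higher and 2 lower, with cdk5 at -0.49. With the MO against wildtype at that stage, 1 regulator was higher and 4 lower, with cks2 at -1.10 and wee2 at -0.25. The background there was 12.7% of all genes higher and 12.5% lower. Of the 9 other cyclins 2 were higher and 2 lower, with a median of 0.12 and ccnb1 at -0.22. Of the 7 genes of cyclin destruction 2 were higher and 2 lower, with a median of -0.004 and fbxo43 at -0.54.

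Tested genes were ranked by correlation of mean log2 CPM over the 13 groups, as a description. Genes with only a locus number or placeholder name were left out. Those most like ccna1 were the histone genes h2ac1 and h2ac17 and b3gnt5 (Pearson r = 0.998 each). Those most like ccne1 were hnrnpk, prmt1 and cdc20 (r = 0.998 each), and those most like ccnd1 were c16orf71 (0.928), zbtb1 (0.916) and fnbp1 (0.910). Among the members, ccna1 followed ccnb2 (r = 0.991), ccne1 (0.984), ccna2 (0.980) and cdk4 (0.948), and ran against ccnd2 (-0.877) and ccne2 (-0.749). The 13 points share stages and reagents, and the groups of 1 stage are alike.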

How the data were processed

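PolyA RNA of whole embryos was made into stranded mRNA libraries with a Vazyme kit, per the labels' protocols. The authors deposited 1 table of raw counts per gene for all 26 libraries, with each gene's position and length. Counting was by fragment and reverse-stranded, per the file headers, and fastp, STAR 2.7.0e, featureCounts 2.0.1 and deepTools are named with the v10 build in the submitters' processing notes.

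A single edgeR 4.0.16 quasi-likelihood fit (R 4.3.3, limma 3.58.1, TMM scaling, 13 group means, 13 residual degrees of freedom, common biological variation 3.93%) on 12883 genes passing edgeR's count filter gave 27 contrasts, with Benjamini-Hochberg adjustment over all tested genes and a threshold of 0.05. Totals of 14071614 to 19032710 counts per library set the precision. TPM were computed from the counts and deposited lengths. Alternatives were median-of-ratios and total-count scaling, DESeq2 1.42.0, a fit of unfiltered genes, a block for replicate number, a fit of the compared stages alone, and leaving out each library. The code was tested on simulated data. For stage 8 Cdkn1a mRNA against wildtype it called 13 of 50 simulated 1.2-fold changes and 28 of 50 simulated 1.5-fold changes. For the stage 7 E2f1 MO against wildtype these were 17 of 50 and 36 of 50. Small changes can thus be missed, and 0 members called does not show that none changed.

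The members and lists were chosen with earlier results of these data known. All 10 members are named, with up to 4 genes per list. For ccna1, ccne1 and ccnd1 the 3 genes most like each by correlation are named, leaving out locus numbers and placeholder names. The test of E2f1 against deltaDBD mRNA by stage was added after seeing the data.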

Additional observations from a re-analysis of the deposited data

Results flagged for a closer look

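These results were singled out because an effect differed between 2 stages, or between embryos with and without the MO, by a test of the difference itself. At stage 7 the MO effects were negative, at -0.26 in log2 for ccna1, -0.15 for ccna2, -0.32 for ccnb2 and -0.15 for ccne1. At stage 8 the MO called 0 of 10 members. Cdkn1a mRNA called ccna1, ccnb2 and ccne1 lower at stage 7, and of these only ccna1 at stage 8, as higher. The effect of the E2f1 MO against wildtype was higher at stage 8 than at stage 7 by 0.33 in log2 for ccna1, 0.24 for ccna2, 0.27 for ccnb2 and 0.22 for ccne1 (edgeR adjusted p = 3.36e-07, 0.000272, 0.000379 and 0.00181). The effect of Cdkn1a mRNA against wildtype was higher at stage 8 than at stage 7 by 0.26 for ccna1, 0.15 for ccna2, 0.24 for ccnb2 and 0.16 for ccne1 (adjusted p = 5.96e-05, 0.0442, 0.00278 and 0.0383). Both tests use the same wildtype libraries. Each also equals the step of stage 8 against stage 7 in the injected group less the same step in wildtype. Of the Cdkn1a calls, ccna2 and ccne1 were lost with DESeq2, total-count scaling or no count filter, and without any 1 library. Median-of-ratios scaling also lost ccna2 (edgeR adjusted p = 0.0565). The ccnb2 call was lost without stage 8 wildtype replicate 2 or stage 8 Cdkn1a replicate 1.

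E2f1 against deltaDBD mRNA in morphants was lower at stage 8 than at stage 7, with log2 differences of -0.30 for ccna1, -0.28 for ccna2, -0.35 for ccnb2, -0.27 for ccne1 and -0.22 for cdk4 (edgeR adjusted p of 0.00899 or less), in a test added after seeing the data. The cdk4 call was lost with total-count scaling and without stage 7 deltaDBD replicate 1 or stage 8 deltaDBD replicate 2. At stage 8 the effect of Cdkn1a mRNA on ccna1 was lower with the MO than without it, with a log2 difference of -0.20 (edgeR adjusted p = 0.00114).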

How the results depend on the processing

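No called member reversed under another scaling, tool, filter or fit. The 1 reversed value was cdk1 with MO and Cdkn1a mRNA against the MO at stage 8, at -0.24 without stage 8 E2f1 MO replicate 1 and 0.28 without replicate 2; the cause was not tested. Without the count filter, members called were 1 for deltaDBD mRNA against the MO and 1 for MO and Cdkn1a mRNA against the MO at stage 7, 1 for the MO against wildtype and 1 for E2f1 mRNA against the MO at stage 8, 4 for Cdkn1a mRNA against wildtype at stage 8, 2 for its interaction with the MO at stage 8 and 2 for its effect by stage. All genes called, in that order, numbered 21, 371, 946, 1240, 888, 1085 and 838. As reported they were 4, 180, 556, 781, 801, 815 and 785. With total-count scaling members called were 2 for E2f1 mRNA and 0 for Cdkn1a mRNA against wildtype at stage 7, 2 for E2f1 mRNA against wildtype at stage 8 and 2 for the Cdkn1a effect by stage, as with DESeq2 (2). All genes called then numbered 1553, 563, 737 and 755, and 570 with DESeq2, against 1678, 612, 741 and 785 as reported. With only the libraries of the stages compared members called were 1 for deltaDBD mRNA against the MO, 1 for MO and Cdkn1a mRNA against the MO and 1 for the stage 7 interaction, and at stage 8, 0 for E2f1 mRNA and 1 for Cdkn1a mRNA against wildtype. All genes called there numbered 33, 792, 675, 470 and 482, against 4, 180, 135, 741 and 801 as reported. The causes were not tested.

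The replicate numbers showed no pairing of the libraries in 1 measure. Over 78 pairs of groups the correlation of replicate differences ran from -0.101 to 0.0824, with 0 over 0.1 and 1 under -0.1. A pairing too weak for this measure could not be seen. The replicate block called 1 member, ccnb2, for E2f1 mRNA against the MO at stage 8 and 1, ccnb2, for the stage 7 interaction of MO and Cdkn1a mRNA. It called 815 and 153 of all genes in these, against 781 and 135 as reported.

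Leaving out 1 library gave 1 to 4 calls for E2f1 mRNA against wildtype and 0 for Cdkn1a mRNA against wildtype at stage 7. At stage 8 it gave 0 to 4 for the MO against wildtype, 0 to 3 for E2f1 mRNA against the MO, 0 to 4 for deltaDBD mRNA against the MO, 0 to 4 for MO and Cdkn1a mRNA against the MO, 0 to 1 for E2f1 mRNA and 1 for Cdkn1a mRNA against wildtype. It gave 0 to 2 for the stage step of the MO, 1 to 4 for the stage 8 interaction and 1 to 2 for the Cdkn1a effect by stage. Without gene length, the stage 6 wildtype log2 ratios were 1.11 for ccna1 over ccna2, 4.31 for ccne1 over ccne2 and -2.95 for ccnd1 over ccnd2, against 0.97, 4.23 and -0.89 per length. ccnd1, at 60 to 131 counts per library, is limited by depth.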
